A study of Komagataella phaffii CBS 7435 with 16 samples.

Results

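Described here are 5 genes of methanol use in the methylotrophic yeast Komagataella phaffii, followed across an oxygen shift in cultures that were fed glucose. They are the alcohol oxidase genes AOX1 (PP7435_Chr4-0130.t01) and AOX2 (PP7435_Chr4-0863.t01), the dihydroxyacetone synthase genes DAS1 (PP7435_Chr3-0352.t01) and DAS2 (PP7435_Chr3-0350.t01), and the catalase gene CTA1 (PP7435_Chr2-0137.t01). They were taken by identifier, as 5 of the 5564 features that each deposited table lists. The identifiers place both oxidase genes on chromosome 4, both synthase genes on chromosome 3 and the catalase gene on chromosome 2. The coding lengths listed are 1992 nt for AOX1 and AOX2, 2124 nt for DAS1 and DAS2, and 1533 nt for CTA1, or 663, 707 and 510 codons without the stop.

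Alcohol oxidase oxidises methanol with molecular oxygen in the peroxisome and gives formaldehyde and hydrogen peroxide. Catalase breaks the peroxide down, and dihydroxyacetone synthase uses formaldehyde and xylulose 5-phosphate in the first step of building methanol carbon into the cell. In this yeast AOX1 carries most of the oxidase activity during growth on methanol, and AOX2 is the weaker paralogue. The AOX and DAS promoters are known to be repressed by excess glucose, released from repression when the carbon source is scarce, and strongly induced by methanol. Catalase also serves peroxide removal outside methanol growth.

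RNA was sequenced from glucose-limited chemostats of the wild-type strain CBS7435, a continuous culture in which medium is fed and culture drawn off at a fixed rate (0.075 per h, 25 °C, pH 5.5). The 16 libraries form 4 groups of 4 biological replicates. In the sample labels 3 groups are at 0% oxygen, after 0.4, 4 and 5 reactor volume changes, and 1 group is at 30% oxygen, after 5 volume changes. The treatment protocol words the same points differently: 5, 50 and 70 h after a switch to 8% oxygen in the inlet gas, and 66 h at 21% oxygen. The names of the labels are kept here, and "0.4, 4 and 5 volume changes" always means 0% oxygen. All groups share the strain, the glucose feed and the dilution rate, and no methanol is named in the descriptions. Oxygen supply and total time in the reactor changed together, so they cannot be told apart in comparisons with 30% oxygen.

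The libraries held 23085262 to 40699763 estimated counts, the lowest in replicate 2 at 5 volume changes. Nuclear features with the suffix r, which the tables do not explain, took 0.854% of counts in replicate 4 at 5 volume changes and 0.014% to 0.0381% elsewhere. Every gene described here passed the filter on low counts, the lowest single value being 738 estimated counts for AOX1. CTA1 counts were whole numbers, within 1e-06, in all 16 libraries. AOX1 and AOX2 were fractional in 7 libraries each, DAS1 in 15 and DAS2 in 16 at that tolerance, which is how reads shared between similar features are split. Within each pair the 2 estimates summed to within 0.1 of a whole number in all 16 libraries, so at that looser tolerance the splitting stayed inside the pair. Single-gene values of AOX1, AOX2, DAS1 and DAS2 therefore carry an uncertainty of assignment that their sums do not.

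The 4 oxidase and synthase genes were far lower at every sampling point of 0% oxygen than at 30% oxygen, and AOX1 fell furthest. CTA1 took another course: it fell at 0.4 volume changes, stood above the 30% level at 4 volume changes, and did not differ detectably from it at 5. Levels are given below in TPM, the deposited estimated count over effective length, scaled to a fixed sum over all features of a library. Differences are log2 fold changes with their standard error from edgeR's quasi-likelihood test on the rounded counts, fitted to all 16 libraries and called at an adjusted p under 0.05 over 5452 features. In bulk RNA, fewer cells expressing a gene and less RNA per cell cannot be told apart.

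AOX1, the main alcohol oxidase gene, stood at 21.6, 17.8, 18.6 and 19.6 TPM in replicates 1 to 4 at 0.4 volume changes. At 4 volume changes it had 18.0, 17.7, 12.7 and 11 TPM, and at 5 volume changes 20.9, 11, 12.7 and 17.3 TPM. At 30% oxygen the values were 431, 481, 451 and 473 TPM. The 12 libraries at 0% oxygen thus all lay far below the 4 at 30% oxygen, with no overlap. By TPM, AOX1 ranked between 4350 and 5189 of the 5378 features with suffix t in the 0% libraries, against 323 to 354 in the 30% libraries.

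The fall of AOX1 was 21.4-fold at 0.4 volume changes (log2 fold change -4.42 ± 0.22), 30-fold at 4 (-4.91 ± 0.23) and 28.1-fold at 5 volume changes (-4.81 ± 0.23), SE, n = 4 per group. Adjusted p-values in edgeR were 1.47e-11, 6.61e-12 and 8.75e-12. Ordered from the most lowered feature, AOX1 held places 18, 14 and 15 among the 5452 tested.

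AOX2, the paralogue of AOX1, had 22.7, 16.1, 17.5 and 15.9 TPM in replicates 1 to 4 at 0.4 volume changes. It had 20.2, 19.2, 14.2 and 12.2 TPM at 4 volume changes and 18.8, 13.5, 12.9 and 18.0 TPM at 5. At 30% oxygen it stood at 132, 164, 147 and 153 TPM. Again no library at 0% oxygen reached the 30% range. The level at 30% oxygen was lower than that of AOX1, and the levels at 0% oxygen were about the same. AOX2 fell 7.47-, 8.78- and 8.91-fold, with log2 fold changes of -2.90 ± 0.20, -3.13 ± 0.20 and -3.15 ± 0.20 (edgeR adjusted p 8.52e-10, 4.42e-10 and 4.27e-10).

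Replicates 1 and 2 were higher than replicates 3 and 4 at 4 volume changes, and replicates 1 and 4 were higher than 2 and 3 at 5 volume changes, for AOX1, AOX2 and also CTA1. At 0.4 volume changes AOX1 and AOX2 did not share an order, replicate 4 being second highest for AOX1 and lowest for AOX2. The spread gave AOX1 a coefficient of variation of 23.9% at 4 and 29.2% at 5 volume changes, against 4.88% at 30% oxygen.

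**Figure D1:**
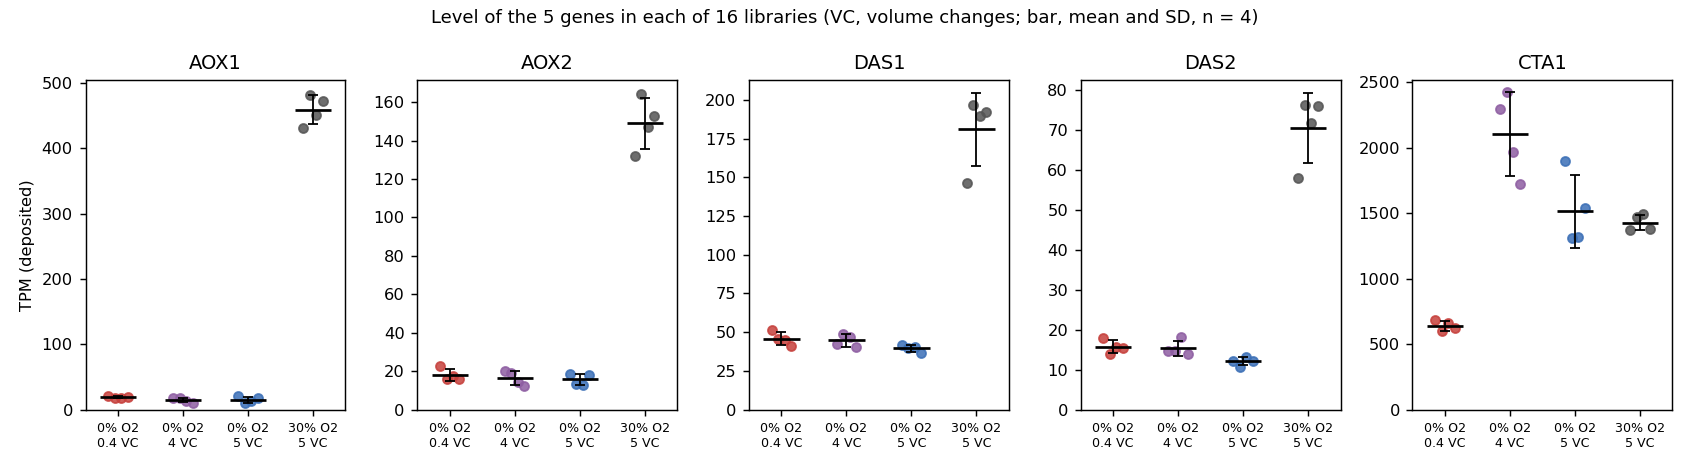
Deposited TPM (vertical axes, from 0, a separate scale for each gene) of the 5 genes in the 16 libraries, grouped by labelled oxygen and volume changes (VC); points are libraries, bars the mean and SD of 4. All 12 points at 0% O2 lie below all 4 at 30% O2 for AOX1, AOX2, DAS1 and DAS2, while CTA1 averages 642 TPM at 0.4, 2103 at 4 and 1515 at 5 volume changes and 1429 TPM at 30% O2.

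DAS1, the more abundant of the dihydroxyacetone synthase genes, had 51.4, 45.8, 45.1 and 41.2 TPM in replicates 1 to 4 at 0.4 volume changes. It stood at 42.5, 48.9, 47.1 and 40.2 TPM at 4 volume changes and at 42.0, 39.6, 40.7 and 36.7 TPM at 5. At 30% oxygen it had 146, 197, 190 and 192 TPM, replicate 1 lying apart from the others. The means at 0.4, 4 and 5 volume changes were 25.3%, 24.7% and 22% of that at 30% oxygen. The fall was 3.58-, 3.95- and 4.33-fold, with log2 fold changes of -1.84 ± 0.13, -1.98 ± 0.13 and -2.12 ± 0.13 (edgeR adjusted p 1.67e-09, 8.03e-10 and 3.86e-10).

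DAS2, the other synthase gene, had 17.9, 13.8, 15.8 and 15.6 TPM in replicates 1 to 4 at 0.4 volume changes. Its values were 14.7, 14.8, 18.2 and 13.9 TPM at 4 volume changes and 12.2, 10.8, 13.2 and 12.3 TPM at 5. At 30% oxygen it stood at 58, 76.4, 71.7 and 76.2 TPM. As for DAS1, the groups did not overlap and replicate 1 was the lowest of the 30% libraries. DAS2 fell 4.05-, 4.51- and 5.53-fold, with log2 fold changes of -2.02 ± 0.13, -2.17 ± 0.13 and -2.47 ± 0.13 (edgeR adjusted p 3.35e-10, 1.70e-10 and 3.61e-11).

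With each pair summed to 1 feature before the fit, so that the assignment of shared reads has no part, the falls remained. At 0.4, 4 and 5 volume changes the log2 fold changes of the oxidase pair were -3.87 ± 0.21, -4.24 ± 0.21 and -4.2 ± 0.21. Those of the synthase pair were -1.89 ± 0.13, -2.03 ± 0.13 and -2.21 ± 0.13. Their highest adjusted p in edgeR was 7.57e-10.

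CTA1, the catalase gene and by far the most abundant of the set, had 684, 597, 661 and 626 TPM in replicates 1 to 4 at 0.4 volume changes. At 4 volume changes it had 2298, 2427, 1966 and 1722 TPM, and at 5 volume changes 1899, 1307, 1317 and 1538 TPM. At 30% oxygen it stood at 1373, 1469, 1492 and 1382 TPM. All libraries at 0.4 volume changes lay below the 30% range and all at 4 volume changes above it, while the libraries at 5 volume changes spread across it. By TPM it ranked 225 to 245 at 0.4, 48 to 72 at 4 and 72 to 115 at 5 volume changes, and 93 to 99 at 30% oxygen, among 5378 features.

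CTA1 fell 2.01-fold at 0.4 volume changes (log2 fold change -1.01 ± 0.16, edgeR adjusted p 6.05e-05). At 4 volume changes it was 1.51-fold higher than at 30% oxygen (0.60 ± 0.16, edgeR adjusted p 0.00542). The value at 5 volume changes was 0.16 ± 0.16 (95% interval -0.18 to 0.50, edgeR adjusted p 0.44), which bounds a difference without showing that the levels were alike. Ordered by mean level, the groups ran 4 volume changes, 5 volume changes, 30% oxygen and 0.4 volume changes, and 5 volume changes differed in the test from neither of its neighbours in that order.

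All 5 genes thus fell at 0.4 volume changes, where 24% of all tested features were called lower, 23.8% higher and 47.8% in either direction. At 4 volume changes 4 of them fell and CTA1 rose, against 25.4% of features lower, 24.6% higher and 50% in all. At 5 volume changes 4 fell and CTA1 was not called, against 22.5% of features lower, 23.3% higher and 45.9% in all. In normalised CPM (library-scaled counts) 5, 5 and 4 of the 5 genes did not overlap between the groups, against 48.3%, 42.6% and 40.9% of all features. The 5 genes also all passed the joint test over the 4 groups, as 62.9% of features did (highest edgeR adjusted p 2.16e-06, for CTA1). The median log2 fold change of all features was 0.01, -0.00 and 0.02 in these comparisons. On deposited TPM values with 1 added the median at 0.4 volume changes shifted to -0.13, and limma called 744 features higher and 1627 lower, where edgeR called 1296 and 1310. At 5 volume changes that scale gave 848 higher calls and 1298 lower ones, and edgeR with upper-quartile factors 1566 and 1046, where edgeR with TMM factors gave 1273 and 1227. In each comparison the changes of the 5 genes were larger in size than the median of all features, on either scale. CTA1 at 5 volume changes was nearest to it, at 0.16 in edgeR and 0.07 on TPM with 1 added. The medians there were 0.02 and -0.06.

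**Figure D2:**
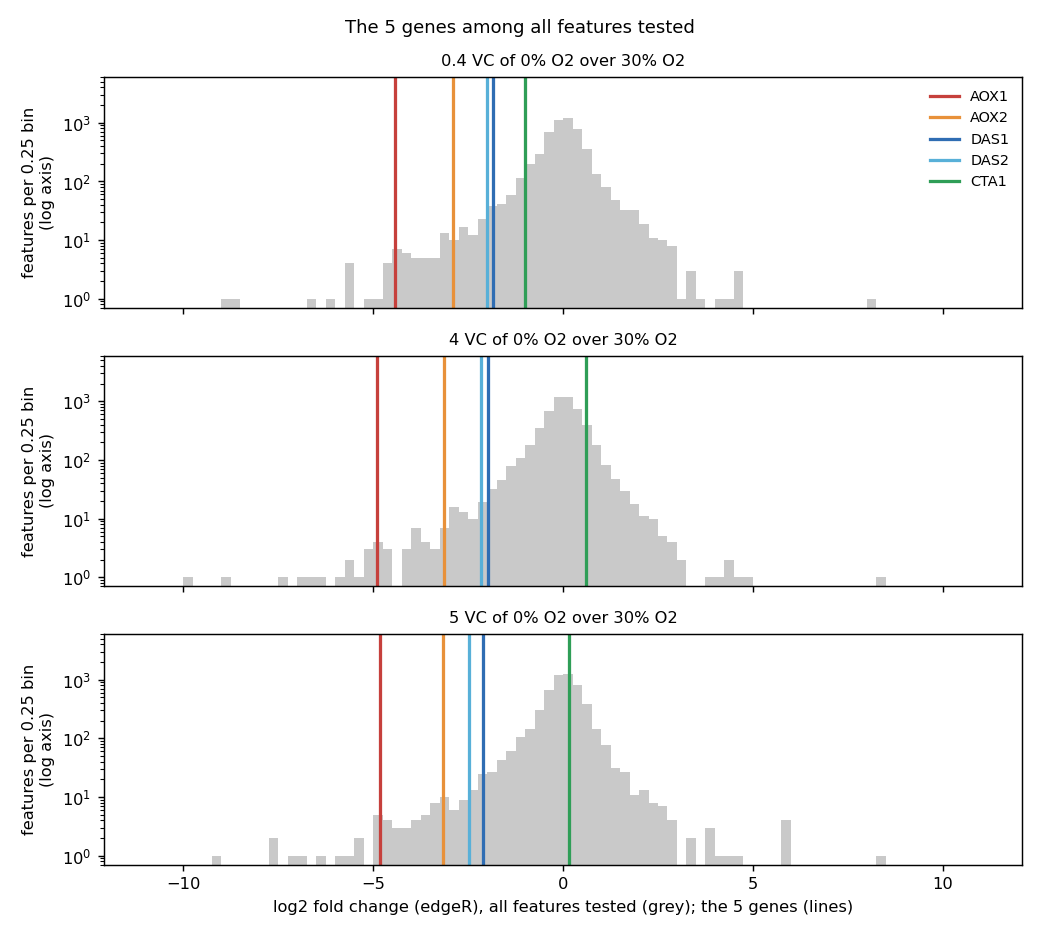
Log2 fold changes from edgeR (horizontal axis) of all 5452 features tested (grey, number of features per bin on a log axis) at 0.4, 4 and 5 volume changes (VC) of 0% O2 over 30% O2, with the 5 genes as coloured lines. AOX1 lies in the far lower tail at -4.42, -4.91 and -4.81, the DAS genes lie between -1.84 and -2.47, and CTA1 crosses zero between the first and second panels.

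Once oxygen had been lowered, few further changes of the oxidase and synthase genes were called, which does not show that their levels stayed the same. Between 4 and 0.4 volume changes, 0 of these 4 were called and CTA1 alone rose, where 16.8% of features were called higher, 18% lower and 34.8% in either direction. CTA1 was also the 1 gene of the 5 whose groups did not overlap in normalised CPM, as was so for 33.6% of features. AOX1 had a log2 fold change of -0.49 ± 0.20 (edgeR adjusted p 0.0636). DESeq2 gave -0.48 (adjusted p 0.0403) and limma-voom -0.55 (adjusted p 0.0322), and without replicate 2 at 4 volume changes edgeR gave -0.69 (adjusted p 0.00869), so this value sits at the threshold. AOX2, DAS1 and DAS2 had -0.23 ± 0.19, -0.14 ± 0.13 and -0.16 ± 0.12, with a highest edgeR adjusted p of 0.407.

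CTA1 rose 3.04-fold at 4 over 0.4 volume changes (log2 fold change 1.61 ± 0.17, edgeR adjusted p 6.86e-07). It held place 35 from the most raised of 5452 features in that comparison. At 5 over 0.4 volume changes it rose 2.25-fold (1.17 ± 0.16, edgeR adjusted p 3.03e-05), place 85, where 13.7% of features were called higher. The level of CTA1 in every library at 4 and 5 volume changes exceeded that in every library at 0.4.

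DAS2 was the other gene called between 5 and 0.4 volume changes, where 15.1% of features were called lower and 28.7% in either direction. CTA1, DAS2 and DAS1 did not overlap in normalised CPM in this comparison, against 31.4% of features. It averaged 12.1 ± 1.00 TPM at 5 and 15.8 ± 1.65 TPM at 0.4 volume changes (SD, n = 4), a log2 fold change of -0.45 ± 0.12 (edgeR adjusted p 0.0112). With DAS1 and DAS2 summed the change was -0.32 ± 0.12 and was not called (edgeR adjusted p 0.061). Replicates 2 and 4 at 5 volume changes were the shallowest library and the one with the largest share of counts in r features. Without them DAS2 had -0.45 and an edgeR adjusted p of 0.0523. DAS1 had -0.28 ± 0.13 (edgeR adjusted p 0.116), and it was called in a fit of the 8 libraries of these groups alone (adjusted p 0.0308). AOX1 and AOX2 had -0.39 ± 0.20 and -0.25 ± 0.19, with adjusted p-values of 0.147 and 0.335 in edgeR.

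Between 5 and 4 volume changes 0 of the 5 genes were called by edgeR, limma-voom or DESeq2, and 0.642% of all features were called by edgeR, 0.459% higher and 0.183% lower. All 5 overlapped in normalised CPM, where 5.72% of features did not. At an unadjusted p under 0.05 in edgeR there were 2 of the 5, CTA1 and DAS2, and 668 of all 5452 features. CTA1 averaged 1515 ± 277 TPM at 5 and 2103 ± 320 TPM at 4 volume changes (SD, n = 4). Its log2 fold change was -0.44 ± 0.16 (95% interval -0.78 to -0.09, edgeR adjusted p 0.266), and that of DAS2 was -0.30 ± 0.12 (edgeR adjusted p 0.335). AOX1, AOX2 and DAS1 lay between -0.13 and 0.10.

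**Figure D3:**
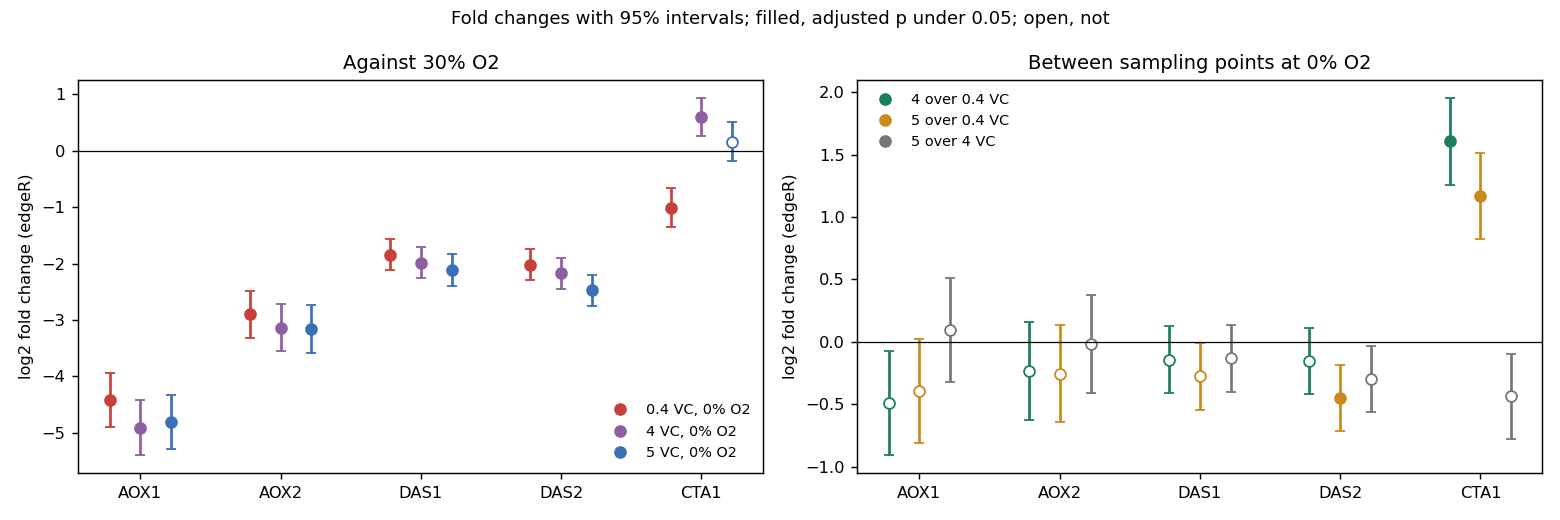
Log2 fold changes from edgeR (vertical axes) with 95% intervals for the 5 genes, at 3 sampling points of 0% O2 over 30% O2 (left) and between those sampling points (right); filled circles mark an adjusted p under 0.05. AOX1, AOX2, DAS1 and DAS2 sit below zero at all 3 points on the left. On the right DAS2 is filled at -0.45 (5 over 0.4 volume changes) and CTA1 at 1.61 and 1.17 over 0.4 volume changes.

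The genes did not fall by equal amounts, which ratios of TPM within each library show without reference to other genes. Differences in the log2 ratio were tested by two-sided exact permutation over the 8 libraries of each comparison, 24 tests in all. Groups of 4 allow no p below 0.0286, and the 14 tests that reached it have an adjusted p of 0.049. That adjusted p depends on how many of the 24 tests reach the lowest p. It therefore does not rank small differences against large ones, and each call rests on the others.

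The AOX1 to AOX2 ratio was 0.953, 1.11, 1.06 and 1.23 in replicates 1 to 4 at 0.4 volume changes. It was 0.893, 0.918, 0.892 and 0.897 at 4 volume changes and 1.12, 0.812, 0.984 and 0.961 at 5. At 30% oxygen it was 3.27, 2.93, 3.07 and 3.10. AOX1 thus exceeded AOX2 clearly in the 30% libraries, and the paralogues were near parity in all 12 libraries at 0% oxygen. The log2 ratio at 0.4, 4 and 5 volume changes differed from that at 30% oxygen by -1.51, -1.78 and -1.68, each with an exact p of 0.0286 (adjusted 0.049). It was also lower at 4 than at 0.4 volume changes (difference -0.27, same exact and adjusted p).

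The DAS1 to DAS2 ratio moved less, and the other way. It averaged 2.92 ± 0.28, 2.92 ± 0.30 and 3.30 ± 0.32 at 0.4, 4 and 5 volume changes, and 2.56 ± 0.06 at 30% oxygen (SD, n = 4). At 5 volume changes all 4 libraries (2.99 to 3.67) lay above the 4 at 30% oxygen (2.52 to 2.65), a log2 difference of 0.35 with an exact p of 0.0286 (adjusted 0.049). At 0.4 and 4 volume changes the differences were 0.18 and 0.18 with an exact p of 0.0571 (adjusted 0.0857), and the groups overlapped. Whether the shared reads of each pair contribute to these ratios was not tested.

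The oxidase genes fell more than the synthase genes. Summed oxidase TPM over summed synthase TPM averaged 0.606 ± 0.03, 0.522 ± 0.12 and 0.603 ± 0.14 at 0.4, 4 and 5 volume changes, and 2.44 ± 0.22 at 30% oxygen (SD, n = 4). In place of an excess of oxidase transcripts there was an excess of synthase transcripts in all 12 libraries at 0% oxygen. The log2 differences were -2, -2.24 and -2.04 (exact p 0.0286 each, adjusted 0.049). Among the 3 points at 0% oxygen this ratio did not differ detectably, with exact p-values of 0.314, 0.8 and 0.429.

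Oxidase against catalase was lower still, and lowest at 4 volume changes. Summed oxidase TPM over CTA1 TPM averaged 0.0582 ± 0.0045, 0.0148 ± 0.0015 and 0.0205 ± 0.0018 at 0.4, 4 and 5 volume changes, and 0.426 ± 0.024 at 30% oxygen (SD, n = 4). None of the 4 groups overlapped with another. The log2 differences from 30% oxygen were -2.87, -4.85 and -4.38, and those from 0.4 volume changes were -1.98 at 4 and -1.51 at 5 volume changes. The ratio was higher at 5 than at 4 volume changes, by 0.47. At 4 over 0.4 volume changes CTA1 rose, and the summed oxidase pair was not called (log2 fold change -0.36 ± 0.19, edgeR adjusted p 0.151). All 6 comparisons of the ratio had an exact p of 0.0286 (adjusted 0.049). CTA1 accordingly made up 86.6 ± 0.69%, 95.8 ± 0.25% and 94.7 ± 0.41% of the summed TPM of the 5 genes at 0.4, 4 and 5 volume changes, and 62.5 ± 1.60% at 30% oxygen.

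**Figure D4:**
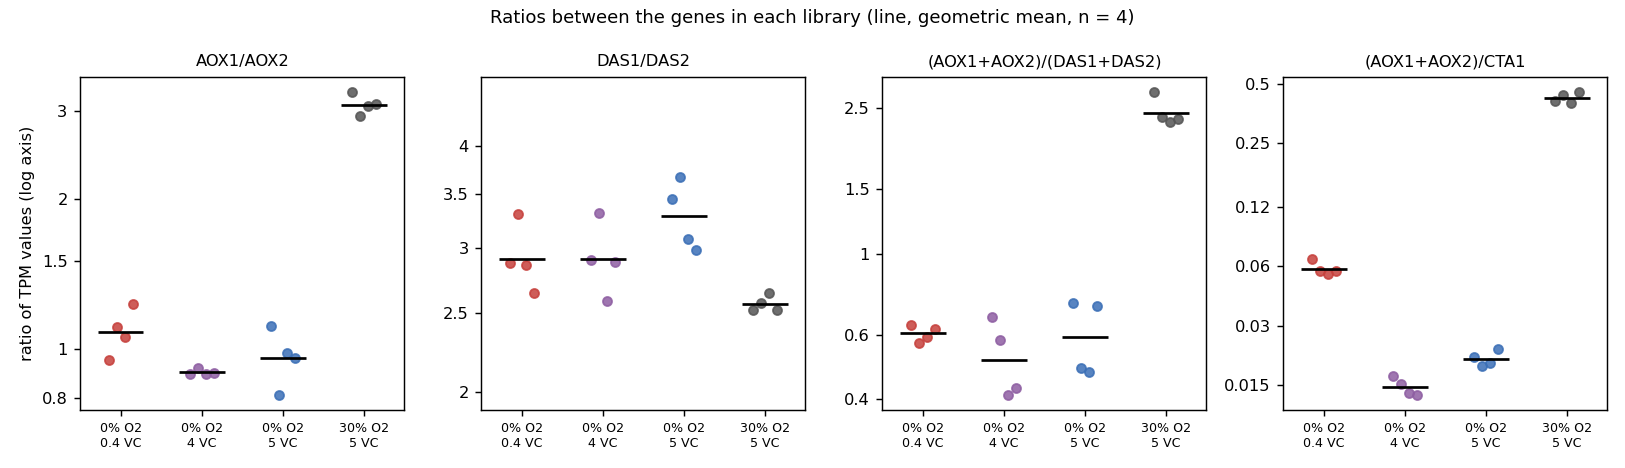
Ratios of deposited TPM in each library (vertical axes, log scale, a separate scale for each ratio), by labelled oxygen and volume changes (VC); points are libraries and lines geometric means of 4. AOX1 over AOX2 is near 1 in the 12 libraries at 0% O2 and 2.93 to 3.27 at 30% O2, and summed oxidase over CTA1 is lowest at 4 volume changes, at 0.0135 to 0.0167.

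The features whose pattern was most like that of each gene were found by Pearson correlation of log2 CPM over the 16 libraries, as a description. For AOX1 the closest of all other 5451 features was AOX2 (r = 0.996), and DAS1 and DAS2 held places 27 and 39. For DAS1 the closest was DAS2 (r = 0.991), with AOX2 in place 5 and AOX1 in place 8. CTA1 was near 0 with each of the 4 (r of 0.002 to 0.049). These values largely restate the gap between the 4 libraries at 30% oxygen and the rest, since 124 features outside the set had an r over 0.95 with AOX1.

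Outside the set, the feature closest to AOX1 was PP7435_Chr4-1741.t01 (r = 0.994), which averaged 34.8, 36.6 and 35.6 TPM at 0.4, 4 and 5 volume changes and 121 TPM at 30% oxygen. The closest to AOX2 was PP7435_Chr1-0007.t01 (r = 0.990), with 37.9, 39.6 and 33.8 TPM at the same points and 2030 TPM at 30% oxygen. The files do not say what these features encode. CTA1 had 6 features with an r over 0.95, and the closest (r = 0.979) had edgeR log2 fold changes of -0.58, 0.52 and 0.16 at 0.4, 4 and 5 volume changes over 30% oxygen, against -1.01, 0.60 and 0.16 for CTA1.

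DAS2 and DAS1 are numbered 0350 and 0352 on chromosome 3, with 1 feature between them, of 837 nt. That feature averaged 28.3 ± 3.5, 23.1 ± 6.3 and 21.7 ± 3.9 TPM at 0.4, 4 and 5 volume changes, and 85.9 ± 12.7 TPM at 30% oxygen (SD, n = 4). Its log2 fold changes were -1.46, -1.9 and -1.91 (edgeR adjusted p 9.27e-08, 4.27e-09 and 4.11e-09), and its counts were whole numbers in all 16 libraries. The strand setting of counting is not known, so reads of genes that overlap on opposite strands could not be told apart. Neighbours of each gene were the 5 features with suffix t before it and the 5 after it in identifier order, without the 5 genes themselves. Over all 5 genes these were 41 features, of which 12 were called lower and 11 higher at 0.4 volume changes over 30% oxygen. Their median log2 fold change was 0.11. At 4 volume changes 10 were lower and 16 higher, and at 5 volume changes 9 and 16. Of all features tested, 24% were called lower and 23.8% higher at 0.4 volume changes. The shares were 25.4% and 24.6% at 4 volume changes, and 22.5% and 23.3% at 5. The AOX1, AOX2 and CTA1 neighbours had medians of 0.12, 0.11 and 0.17 at 0.4 volume changes, and those of DAS1 and DAS2 had -0.42 for each, from overlapping lists. At 4 and 5 volume changes the medians were 0.30 and 0.25 for AOX1, 0.06 and -0.03 for AOX2, and 0.26 and 0.30 for CTA1. The DAS neighbours then had -0.17 and -0.12, nearer 0 than at 0.4 volume changes. Of the 9 DAS1 neighbours, 5, 4 and 4 were called lower at 0.4, 4 and 5 volume changes, and 0, 1 and 1 higher. For the 9 DAS2 neighbours it was 5, 4 and 4 lower and 1, 2 and 2 higher. In both lists the log2 fold changes reached down to -6.73, -6.79 and -7.11. The highest were 0.20, 0.59 and 0.62 for DAS1, and 0.61, 0.59 and 0.62 for DAS2.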

How the data were processed

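RNA was sequenced from 16 chemostat libraries in 4 groups of 4, grouped by sample title. Per the file headers, each deposited table gives length, effective length, an estimated count per feature and a TPM value. TPM is the authors' estimated count over effective length, scaled to a fixed sum per library. Per the submitters' processing notes, with no roles given, the tools were kallisto 0.44.0, Bowtie2 2.3.4.1, cutadapt 1.18, DESeq2 1.36.0, SAMtools 1.9 and R 4.2.0. For genome build, annotation and strand of counting, nothing is given in the sources used here.

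Estimated counts were rounded. In edgeR 4.0.16 (R 4.3.3), filterByExpr kept 5452 of 5564 features, TMM factors were applied, and group means were fitted by the quasi-likelihood method. The 6 contrasts and a joint F test were run, with Benjamini-Hochberg adjustment over all features. Standard errors come from the F statistic. The fitted biological coefficient of variation was 0.149. The fitting code was checked on simulated data. TPM ratios, with 0.1 added to each side, were tested by exact permutation (scipy 1.17.1).

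Members and lists were chosen with earlier results of these data known. Other features were named as the closest in pattern, with at most 2 lower ones printed. Gene names come from the identifier rule: of 5040 reference genes (assembly ASM2700v1), 0 matched an identifier, so other pathway genes, coordinates and sequences are not used here. Replicates of a group differed beyond sampling noise (chi-square per degree of freedom at least 19.2). The labels do not say whether same-numbered libraries came from one culture. Alternatives were DESeq2 1.42.0, limma 3.58.1 (voom, or log2 TPM with 1 or 0.1 added), upper-quartile or RLE factors, unfiltered features, a mean of at least 50 counts, a replicate block, only the libraries compared, summed paralogues, and each library left out. The lowest count of any of the 5 genes in a library was 738.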

Additional observations from a re-analysis of the deposited data

Results flagged for a closer look

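Dixon's test at 95% was applied to the 5 genes and 4 ratios in each group, 36 sets of 4 libraries, of which chance alone flags about 1 in 20, or 1.8. It singled out 1 set. DAS1 stood at 146 TPM in replicate 1 at 30% oxygen, against 190 to 197 TPM in the other 3 libraries.

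Levels at 0% oxygen differed between sampling points for CTA1 and DAS2, by the direct test of one point against another in edgeR. CTA1 differed by a log2 fold change of 1.61 at 4 over 0.4 volume changes and of 1.17 at 5 over 0.4 volume changes. Of all features tested, 34.8% and 28.7% were called in these 2 comparisons. DAS2 differed by -0.45 at 5 over 0.4 volume changes. That call was lost with DAS1 and DAS2 summed (edgeR adjusted p 0.061), and also without replicates 2 and 4 at 5 volume changes.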

How the results depend on the processing

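All calls against 30% oxygen, and both CTA1 rises over 0.4 volume changes, kept their direction and their side of the threshold under every alternative run. CTA1 at 4 volume changes over 30% oxygen ranged from 0.42 to 0.70 with single libraries left out (edgeR adjusted p 0.00199 to 0.017), and from 0.55 to 0.65 under the other settings. Between 4 and 0.4 volume changes 1 of the 5 genes was called, where 1900 of all 5452 features were. DESeq2 called 2 of the 5 and 2074 of 5536 features, and limma-voom 2 of the 5 and 1909 of 5452. Leaving out single libraries gave 1 to 2 of the 5, and 1590 to 1973 of all features. Between 5 and 0.4 volume changes 2 of the 5 were called, where 1567 of all 5452 features were. A fit of only the libraries compared called 3 of the 5 and 1671 of 5427 features. With paralogue counts summed, which leaves 3 features for the 5 genes, 1 was called, and 1565 of 5450 features. Without both replicates 2 and 4 at 5 volume changes 1 of the 5 was called, and 1158 of 5470 features. That alternative was added after the data were seen. Signs of single genes turned for uncalled values at 5 over 4 volume changes: AOX2 had -0.02, but 0.0311 with limma-voom, 0.0343 with the pair summed, and -0.16 to 0.17 with single libraries left out. There AOX1 ranged from -0.0625 to 0.30 and DAS1 from -0.20 to 0.00946. The cause was not tested. Tests of ratios kept their calls with 1 TPM or nothing added. The lowest value of any of the 5 genes was 10.8 TPM, so these settings could change little. With a library left out only the difference in the ratio was recorded, with no test. With single libraries left out 2 uncalled ratio differences changed sign, DAS1 to DAS2 at 4 over 0.4 volume changes (-0.06 to 0.06) and oxidase to synthase at 5 over 0.4 volume changes (-0.14 to 0.07).

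The correlation of deviations from the group means between same-numbered libraries was over 0.1 in 9 of 24 pairs (median -0.003), and in all 4 pairs of no comparison. It was over 0.1 in 3 of 4 pairs at 5 over 4 and at 5 over 0.4 volume changes, where the remaining pairs had -0.201 (replicate 4) and -0.343 (replicate 3). Not every library correlated best with its own number (8 of 24), so the numbers were not taken to pair the libraries. With a replicate block no call of the 5 genes changed; AOX1 at 4 over 0.4 volume changes had -0.50 (edgeR adjusted p 0.0742). Of all features, edgeR called 35 at 5 over 4 volume changes, DESeq2 113, limma 8 on log2(TPM + 1) and 11 on log2(TPM + 0.1), and a fit of those 8 libraries 0. Without replicates 2 and 4 at 5 volume changes edgeR called 0, and with single libraries left out 16 (replicate 4 at 5 volume changes) to 41. At 4 over 0.4 volume changes 916 were higher and 984 lower, against 1212 and 600 on log2(TPM + 1), a shift of the median of 0.12. At 5 over 0.4 volume changes 745 were higher and 822 lower, against 771 and 518 on that scale, and 931 and 679 with upper-quartile factors.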
